A study of Cavia porcellus with 18 samples.

Results

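H3K4me1 peaks that held several RNA polymerase II peaks were described in guinea pig hippocampus. They are the peaks of the deposited H3K4me1 list that were under 10000 bases wide and shared at least 1 base with 2 or more peaks of the deposited list for Pol II PS5, the polymerase phosphorylated on serine 5. There were 4802 such peaks among the 327682 H3K4me1 peaks of the list, or 1.47%. They are called several-Pol II peaks below, and they were set against the 23353 H3K4me1 peaks of the same width range, 294 to 9994 bases, that overlapped exactly 1 Pol II peak (1-Pol II peaks). Both peak lists chose these groups, so Pol II and H3K4me1 values are given as a description without a test. Methylation and start sites were not used in the choice.

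The tissue was whole hippocampus of 3 wild type male guinea pigs aged 12 weeks, with no treatment and no second group of animals. Of 18 libraries, 3 each (1 per animal) came from ChIP-seq against Pol II PS5, ChIP-seq against H3K4me1, and H3K4me1 ChIP with bisulfite treatment (ChIP-bisulfite). Reduced representation bisulfite sequencing (RRBS), on DNA digested with MspI and ApeKI, had 6 libraries with reads of 50 or 100 bases, and 3 digested libraries without bisulfite were not analysed here. Each deposited value stands for all animals together, so no spread between animals could be had, and intervals below are across scaffolds or cover counting error only.

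H3K4me1, a single methyl group on lysine 4 of histone H3, marks enhancers and the flanks of promoters. The carboxy-terminal tail of Pol II is phosphorylated on serine 5 as transcription starts, so the PS5 form is found at promoters and early in genes, and also at active enhancers, where short RNAs are made in both directions. CG sites at active promoters and enhancers of mammals usually carry little methylation, and those elsewhere carry much.

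The lists held 67423 Pol II peaks on 3102 scaffolds. The span of a scaffold was taken as the highest position in the lists, since no genome was used. By that measure 205 scaffolds of at least 1 Mb held 93.6% of a summed span of 2719 Mb. Pol II peaks were denser on the shorter scaffolds, at 113 per Mb, than on those of at least 1 Mb, at 18.8 per Mb. Gene identifiers in the files were not paired with symbols, and 0 of 19244 matched a symbol in the RefSeq gene table, so markers of hippocampal cells could not be looked up and genes are given by identifier only. The ChIP-bisulfite and RRBS levels come from bulk tissue, where an intermediate level can reflect a mixture of cells or of DNA molecules within a cell, and these cannot be told apart.

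The several-Pol II peaks were split between long and short scaffolds. Only 36.1% of them (1735) were on scaffolds of at least 1 Mb, against 78.0% of the 1-Pol II peaks (18213). Scaffolds with a span under 20 kb held 25.5% of the several-Pol II peaks and 2.76% of the 1-Pol II peaks. A several-Pol II peak covered over 50% of its scaffold's span in 13.4% of cases (95% exact interval 12.5 to 14.4), and a 1-Pol II peak in 0.313% (0.245 to 0.393). The span can end at the peak itself, so these are not shares of true scaffold length. Read the other way, several-Pol II peaks made up 65.5% of the peaks with any Pol II on scaffolds under 20 kb, 46.0% at 20 to 100 kb, 22.1% at 100 kb to 1 Mb and 8.70% at 1 Mb or more. The limit of 1 Mb was set after these values were seen, and the fitted differences between the groups are given on both sides of it.

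**Figure D1:**
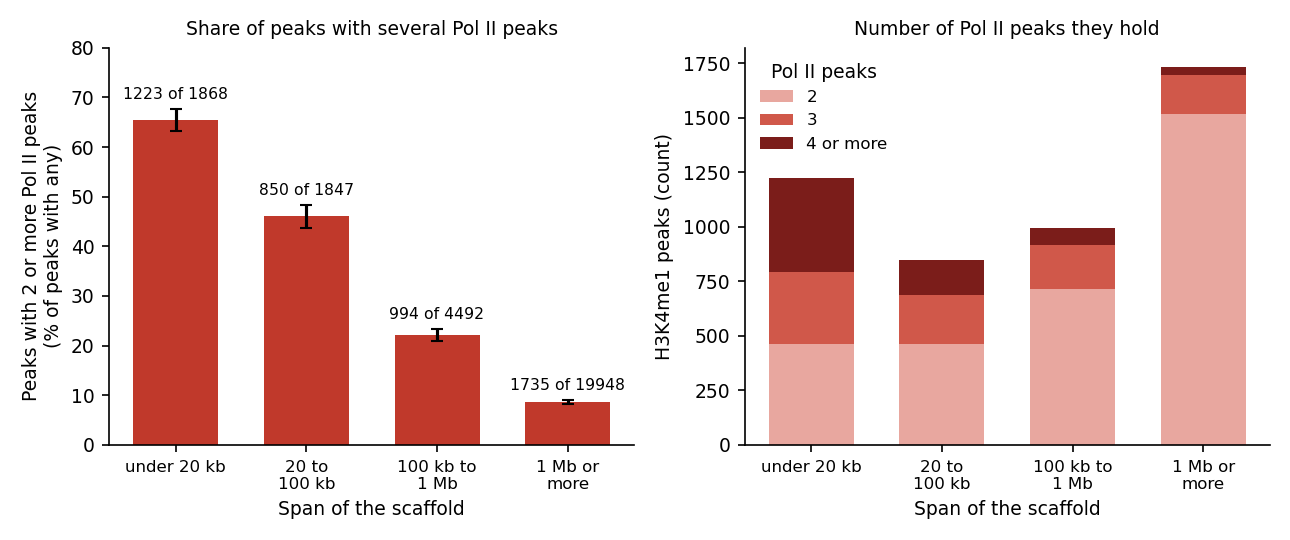
Left: the share of H3K4me1 peaks with any Pol II peak that held 2 or more, in percent, by span of the scaffold, with 95% exact binomial intervals and the counts above the bars. Right: the number of several-Pol II peaks in each class, split by how many Pol II peaks they held. The share was 65.5% on scaffolds under 20 kb and 8.70% at 1 Mb or more, and peaks with 4 or more Pol II peaks were mostly on short scaffolds.

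Most several-Pol II peaks held few Pol II peaks. Exactly 2 lay in 3157 of them, 3 in 935, 4 in 428, 5 in 186, 6 in 61, 7 in 29 and 8 in 6. Together they held 12378 Pol II peaks, 18.4% of the list, of which 46 also reached into a neighbouring H3K4me1 peak. The share on scaffolds of at least 1 Mb was 48.0% with 2 Pol II peaks, 19.6% with 3 and 5.07% with 4 or more. Several-Pol II peaks lay on 1719 scaffolds, and 3 of them were on the mitochondrial genome, which is listed as chrM.

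Width and H3K4me1 score differed between the groups as well. The median width was 4243 bases in several-Pol II peaks (middle 50% 2743 to 6002) and 2914 bases in 1-Pol II peaks (1399 to 4826). H3K4me1 scores are on 2 scales in 1 column, a low one that ends at 14.8 and a high one that starts at 42. On scaffolds of at least 1 Mb the high scale held 57.1% of the several-Pol II peaks and 66.7% of the 1-Pol II peaks. On shorter scaffolds it held 32.1% of the several-Pol II peaks and 16.7% of the 1-Pol II peaks, so the order of the groups was the opposite there. At the width limit, 70 peaks of 9500 bases or more with several Pol II peaks held a median of 2, and 62.9% were on scaffolds of at least 1 Mb. The 65 peaks just outside, up to 500 bases wider, also held a median of 2, and 56.9% were on such scaffolds.

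The deepest RRBS position of a peak also moved with the groups. Among peaks of shorter scaffolds that held an RRBS position, a position with at least 100 reads occurred in 30.7% of the several-Pol II peaks and in 16.4% of the 1-Pol II peaks. On scaffolds of at least 1 Mb the shares were 12.7% in several-Pol II peaks and 5.04% in 1-Pol II peaks. A wider peak can hold more positions, so a deep one is likelier in it. On shorter scaffolds the median width was 4364 bases in several-Pol II peaks and 2064.5 in 1-Pol II peaks. No difference in depth per position is therefore read from these shares. The part of scaffold span and of deep RRBS positions in the number of Pol II peaks was not tested.

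Distances between neighbouring Pol II peaks were taken only within an H3K4me1 peak, so its width limits them. Over 7576 neighbouring pairs the median distance between centres was 1083 bases, with 50% of the pairs between 725.5 and 1691 bases and 90% between 495 and 3663. The median gap from edge to edge was 664 bases, and it was under 500 bases in 39.4% of the pairs. Pairs more than 3000 bases apart made up 8.14%. Narrow peaks have little room for such a pair, and the median width was 4243 bases (middle 50% 2743 to 6002). No closeness beyond that limit is therefore read from these distances. The Pol II peaks themselves had a median width of 298 bases in several-Pol II peaks and 266 bases in 1-Pol II peaks. They covered a median of 22.0% of the width of a several-Pol II peak.

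Pairs were closer on long scaffolds. The median distance was 869 bases on scaffolds of at least 1 Mb (2000 pairs, middle 50% 614 to 1544) and 1148 bases on shorter ones (5576 pairs, 780 to 1728). Distances of 400 to 800 bases made up the bulk of the close pairs on long scaffolds, with 21.6% of the pairs at 400 to 600 bases and 21.9% at 600 to 800. On shorter scaffolds the same bins held 9.76% and 16.4%. Distances under 400 bases were rare on both, at 1.20% on long scaffolds and 0.502% on shorter ones, and what the peak caller joins or separates at that range was not stated. Among the 710 peaks with 4 or more Pol II peaks, the coefficient of variation of the distances within a peak had a median of 0.466, so the spacing within such a peak was uneven in most of them.

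**Figure D2:**
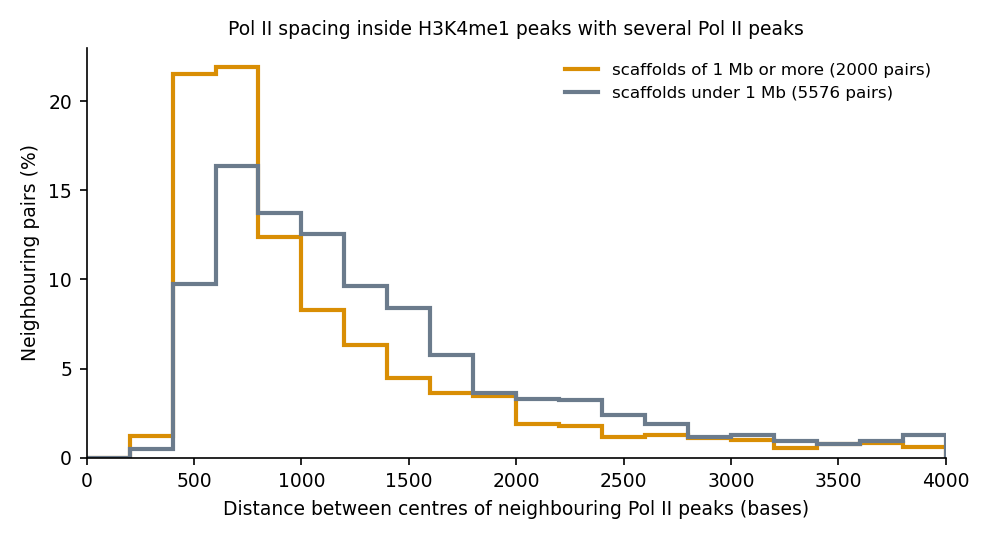
Distances between the centres of neighbouring Pol II peaks within one H3K4me1 peak, in bins of 200 bases up to 4000 bases, as a percentage of all pairs on scaffolds of at least 1 Mb (2000 pairs) and on shorter ones (5576 pairs). The long scaffolds had 21.6% of their pairs at 400 to 600 bases, against 9.76% on the shorter ones.

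Each Pol II peak carries the authors' score, used here only within its list. The median score was 3.27 over the 12378 Pol II peaks of the several-Pol II peaks (middle 50% 2.77 to 4.13) and 3.50 over those of the 1-Pol II peaks (3.00 to 5.00). On scaffolds of at least 1 Mb it was 3.40 in several-Pol II peaks and 3.58 in 1-Pol II peaks, and on shorter ones 3.23 in several-Pol II peaks and 3.32 in 1-Pol II peaks. The score column is written in 2 forms that differ in size. Scores with at most 2 decimals (11.9% of the list) had a median of 6.93, and scores with more decimals a median of 3.25, and why they differ was not stated. The form with at most 2 decimals made up 8.79% of the scores in several-Pol II peaks and 20.7% in 1-Pol II peaks. Within the form with more decimals the medians were 3.18 in several-Pol II peaks and 3.20 in 1-Pol II peaks, so the groups were closer there than over both forms.

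Scores of Pol II peaks in the same H3K4me1 peak mostly lay in a narrow range. Those of the whole group did too (middle 50% 2.77 to 4.13). Pol II peaks of different H3K4me1 peaks were not compared, so no likeness between neighbours is read from the ratios below. The highest score divided by the lowest in the same several-Pol II peak had a median of 1.36 (middle 50% 1.16 to 1.80), and it was under 1.5 in 60.4%. A ratio above 3 occurred in 7.02%, or 337 peaks, and 85.2% of those held scores of both written forms. The median ratio was 2.51 in the 724 peaks with both forms and 1.30 in the 4078 with 1 form. The median score over all their Pol II peaks was 3.37 in peaks with 2, 3.28 in peaks with 3 and 3.09 in peaks with 4 or more. The median of the highest score in a peak was 3.94 with 2, 4.23 with 3 and 4.42 with 4 or more, and since a highest value is larger when taken over more values, nothing is read from that order.

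The 10 peaks that came first by number of Pol II peaks held no listed start site and no shared CG site. Ties were ordered by the higher summed score. These 10 held 7 or 8 Pol II peaks, and 9 of them lay on scaffolds with a span of 10299 bases or less. Another peak with 7, on scaffold_2369 from 21 to 6990, had a lower summed score and held 3 start sites and 22 shared sites. The first of the 10, on scaffold_2057 from 21 to 7400, took up nearly all of the listed span of its scaffold. That span ended at the peak's own end, so the true length of the scaffold is not known. Its 8 Pol II peaks had scores of 36.5, 2.83, 3.44, 2.61, 2.16, 2.23, 2.75 and 2.96 in order along the scaffold, so 1 score stood far above the others, and it was the only score there of the form with at most 2 decimals. The largest summed score belonged to a peak on scaffold_1289 from 1 to 4057, whose Pol II peaks scored 563 and 3.00. Of the 5 largest sums, 2 were on the mitochondrial genome, which is transcribed by a polymerase of its own. The peak from 182 to 3264 there had a top score of 409 and the one from 15138 to 16633 a top score of 173, with 8 shared CG sites that averaged 1.38% in RRBS and 0 in ChIP-bisulfite.

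Start sites inside the peaks were taken from the site table, which lists a transcript only where a CG site was measured in both bisulfite assays. A listed start site lay in 7.39% of the several-Pol II peaks (355; 95% exact interval 6.67 to 8.17) and in 11.4% of the 1-Pol II peaks (2655; 11.0 to 11.8). In an ordinary least squares fit over peaks with log2 width as covariate and standard errors clustered by scaffold (n = 4802 several-Pol II and n = 23353 1-Pol II peaks), the share was lower by 9.02 percentage points in several-Pol II peaks (difference -9.02, SE 0.574, 95% interval -10.1 to -7.90, adjusted p = 1e-54, Benjamini-Hochberg over 9 fitted differences, two-sided). The sign of this difference turned on scaffolds of at least 1 Mb. There a start site lay in 19.2% of the several-Pol II peaks (333, n = 1735) and in 14.0% of the 1-Pol II peaks (2554, n = 18213), and the fitted difference was 1.52 points (-0.478 to 3.51, p = 0.14), which did not pass the threshold. On shorter scaffolds the shares were 0.717% in several-Pol II peaks (22, n = 3067) and 1.96% in 1-Pol II peaks (101, n = 5140), with a fitted difference of -3.15 points (-4.49 to -1.81, p = 3.8e-06). Among peaks of any scaffold with at least 1 shared CG site, the share was higher in several-Pol II peaks by 8.52 points (4.57 to 12.5, p = 2.4e-05, n = 567 and n = 5528). No direction is therefore drawn from the pooled value.

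On the long scaffolds the share with a start site went with width. Peaks were split at the quartiles of width of the several-Pol II peaks. In the narrowest class, up to 2743 bases, a start site lay in 0.691% of several-Pol II peaks and 2.07% of 1-Pol II peaks on scaffolds of at least 1 Mb. In the next class the shares were 9.04% in several-Pol II peaks and 11.6% in 1-Pol II peaks, and in the one after it, from 4243 to 6002 bases, they were 24.2% in several-Pol II peaks and 25.3% in 1-Pol II peaks. In the widest class the order was the opposite, with 46.3% of 467 several-Pol II peaks and 34.7% of 3090 1-Pol II peaks. On all scaffolds of at least 1 Mb, 2 or more start sites were listed in 3.69% of the several-Pol II peaks (64 of 1735; 2.85 to 4.69), against 1.46% of the 1-Pol II peaks (266 of 18213; 1.29 to 1.65). The differences by width class and the shares with 2 or more start sites were not tested.

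The 355 several-Pol II peaks with a start site held 470 start sites of 462 genes. Exactly 1 lay in 284 of them, 2 in 53, 3 in 12 and 4 or more in 6. Where there were 2, they were on opposite strands in 52.8% of several-Pol II peaks (28 of 53; 38.6 to 66.7) and in 66.0% of 1-Pol II peaks (167 of 253; 59.8 to 71.8). Their median distance was 1712 bases in several-Pol II peaks and 1338 bases in 1-Pol II peaks. The transcript's own Pol II score in the site table was above 0 at 75.5% of the start sites in several-Pol II peaks and at 72.1% of those in 1-Pol II peaks. Most start sites per peak were listed on the mitochondrial genome, where the peak from 4974 to 10227 held 13, each with a transcript Pol II score of 0. Among the nuclear scaffolds the peak on scaffold_12 from 10036659 to 10044252 held 10 start sites. The peak on scaffold_101 from 830760 to 840584 held 7, among them that of ENSCPOG00000001241.

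Around a single start site, Pol II peaks often stood on both sides. Of the 284 several-Pol II peaks with exactly 1 start site, 53.2% (151) had Pol II centres upstream and downstream of it, 35.2% (100) had all of them upstream and 11.6% (33) all downstream. The nearest Pol II centre was within 500 bases of the start site in 65.5% of these (59.6 to 71.0) and in 56.4% of the 2373 1-Pol II peaks with exactly 1 start site (54.4 to 58.4). The nearest is the smallest of several distances in a several-Pol II peak and the only distance in a 1-Pol II peak, so no closer placement is read from these shares. The Pol II peak with the highest score was upstream of the start site in 73.6% of the several-Pol II peaks, and the only Pol II peak was upstream in 73.7% of the 1-Pol II peaks. The median position of that peak was -249 bases in several-Pol II peaks and -231 bases in 1-Pol II peaks.

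In 137 several-Pol II peaks exactly 1 Pol II peak stood on each side of the single start site. The upstream centre was at a median of -299 bases (middle 50% -506 to -161) and the downstream centre at 628 bases (280 to 2619), so the downstream positions were far more spread out. The median score was 4.55 upstream and 3.33 downstream, and the upstream score was the higher one in 69.3% (95 of 137; 60.9 to 76.9). Scores with at most 2 decimals made up 52.6% of the upstream scores and 25.5% of the downstream ones. Among the 56 with both scores of the same form, the upstream score was higher in 66.1% (52.2 to 78.2).

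**Figure D3:**
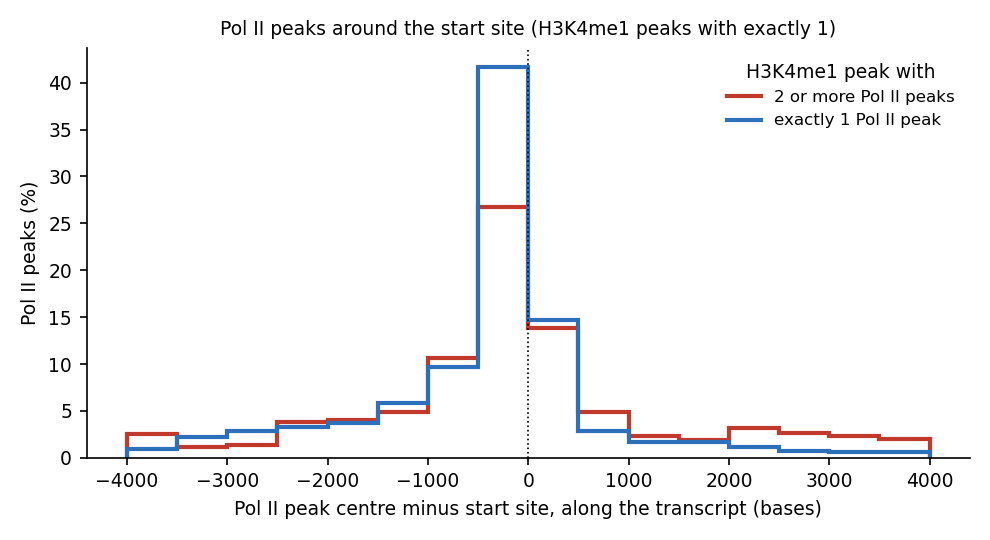
Position of Pol II peak centres relative to the start site, along the transcript, in H3K4me1 peaks with exactly 1 listed start site: 594 Pol II peaks of 284 several-Pol II peaks and 2373 Pol II peaks of as many 1-Pol II peaks, in bins of 500 bases as a percentage of each group (positions beyond 4000 bases are not drawn). The bin just upstream of the start site held 26.8% of the Pol II peaks in several-Pol II peaks and 41.6% in 1-Pol II peaks.

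CG methylation was known for only part of the several-Pol II peaks. At least 1 site measured in both assays lay in 567 of them (11.8%) and in 5528 of the 1-Pol II peaks (23.7%), and 536 of the 567 were on scaffolds of at least 1 Mb. These held 2716 shared sites in several-Pol II peaks and 20879 in 1-Pol II peaks, with a median of 18 RRBS reads per site in several-Pol II peaks and 17 in 1-Pol II peaks. For ChIP-bisulfite the files give no reads for single sites, so its depth is unknown at this level.

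On average over all scaffolds and widths, methylation was lower in several-Pol II peaks in both assays. The mean RRBS level was 45.5% in several-Pol II peaks (SD 31.6, n = 567) and 50.4% in 1-Pol II peaks (SD 32.8, n = 5528). The fitted difference was -5.05 percentage points (SE 1.13, 95% interval -7.26 to -2.85, adjusted p = 1.6e-05, n = 567 and n = 5528 peaks, least squares with log2 width and scaffold-clustered errors). The mean ChIP-bisulfite level was 40.6% in several-Pol II peaks (SD 34.4, n = 567) and 44.6% in 1-Pol II peaks (SD 36.8, n = 5528), with a difference of -4.03 points (-6.75 to -1.31, adjusted p = 0.0055). The spread between peaks was several times these differences. Split at the quartiles of width of the several-Pol II peaks, the order was the opposite in the narrowest class. RRBS averaged 55.1% there in several-Pol II peaks (n = 25) and 48.4% in 1-Pol II peaks (n = 666), and ChIP-bisulfite 50.4% and 44.0%. In the widest class RRBS averaged 44.4% (n = 316) and 51.6% (n = 1930), and ChIP-bisulfite 38.6% and 45.2%. Means in the middle classes were also lower in several-Pol II peaks. The classes were not tested. On the 44 scaffolds with at least 5 peaks of each group, the mean was lower in several-Pol II peaks on 30 in RRBS and on 30 in ChIP-bisulfite.

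The call did not hold once C positions per 1000 bases and the distance to the nearest start site entered the fit beside width. The C positions are those of the deposited table of averages, counted over its intervals in a peak. The difference was then -2.02 points in RRBS (-4.23 to 0.184, p = 0.072) and -1.72 in ChIP-bisulfite (-4.44 to 0.994, p = 0.21), with n = 556 several-Pol II and n = 5469 1-Pol II peaks. Among peaks with no start site within 1000 bases, RRBS averaged 55.8% in several-Pol II peaks (n = 221) and 58.8% in 1-Pol II peaks (n = 2804), and the fitted difference of -3.52 points did not pass (p = 0.082). Peaks with a start site inside were lower in both groups, at 38.4% in 312 several-Pol II peaks and 40.7% in 2192 1-Pol II peaks. On scaffolds of at least 1 Mb the RRBS difference was -5.61 points (-7.85 to -3.37, p = 8.9e-07, n = 536 and n = 5335). On shorter ones it was 5.47 (-5.87 to 16.8, p = 0.34), from a mean of 52.6% in several-Pol II peaks (n = 31) and 48.9% in 1-Pol II peaks (n = 193). The ChIP-bisulfite difference was -4.68 points on scaffolds of at least 1 Mb (-7.46 to -1.90, p = 0.00097, n = 536 and n = 5335) and 7.59 on shorter ones (-5.78 to 21.0, p = 0.27, n = 31 and n = 193). The difference between the classes of scaffold did not pass for either assay (adjusted p = 0.087 in RRBS and 0.088 in ChIP-bisulfite, Benjamini-Hochberg over 7 interaction terms, n = 567 and n = 5528).

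Peaks near 0 and near full methylation were the most frequent, and the rest were spread over the scale. Of the several-Pol II peaks, 17.6% were under 10% and 11.5% at 90% or more in RRBS, and 27.0% were under 10% and 15.9% at 90% or more in ChIP-bisulfite. In RRBS 27.0% of the several-Pol II peaks were at or under 20% and 19.0% at or over 80%, against 24.3% and 24.3% of the 1-Pol II peaks. In ChIP-bisulfite 37.2% of the several-Pol II peaks were at or under 20% and 20.5% at or over 80%, against 34.7% and 24.1% of the 1-Pol II peaks. By number of Pol II peaks, the RRBS mean was 45.0% with 2 (504 peaks), 49.7% with 3 (53 peaks) and 48.8% with 4 or more (10 peaks), with SDs of 25.7 to 31.9. Split at the quartiles of the highest Pol II score in the peak, the RRBS mean was 52.4% in the lowest class, 44.9% and 45.6% in the middle classes and 39.3% in the highest, with SDs of 30.7 to 32.3 and no test. The highest class began at a score of 6.49, in the range where the form with at most 2 decimals is usual.

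The gap between the assays did not differ between the groups beyond its error. ChIP-bisulfite minus RRBS was -4.92 points in several-Pol II peaks (SD 24.7, n = 567) and -5.84 in 1-Pol II peaks (SD 27.4, n = 5528), a fitted difference of 1.02 (-1.10 to 3.14, adjusted p = 0.34). It was 0.934 on scaffolds of at least 1 Mb (-1.29 to 3.15, p = 0.41, n = 536 and n = 5335) and 2.12 on shorter ones (-3.89 to 8.13, p = 0.49, n = 31 and n = 193). In the authors' deposited list of differentially methylated sites, which gives no q-value, 10.2% of all 167387 shared sites were lower in ChIP-bisulfite and 2.93% higher. Of the sites in several-Pol II peaks, 6.08% (165 of 2716; 5.21 to 7.04) were on the authors' deposited list as lower and 2.76% (75; 2.18 to 3.45) as higher. In the 1-Pol II peaks 7.32% were listed as lower (6.97 to 7.68) and 2.87% as higher. The listed share of lower sites was thus below that over all sites in both groups, and the share of higher sites was close to it. Sites near 0 in RRBS have little room to be lower in ChIP-bisulfite. Sites at or under 20% in RRBS made up 45.6% of those in several-Pol II peaks and 41.6% in 1-Pol II peaks. In peaks of the same width range without a Pol II peak they made up 24.4%. The part of the RRBS level in the listed shares was not tested.

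The deposited table of averages gave a second view, over all C positions that an assay covered in a peak. It held 792 several-Pol II peaks, and 726 had at least 3 C positions in each assay. Their mean RRBS level was 45.6% (SD 26.9, n = 726), against 51.5% (SD 27.3, n = 7516) in 1-Pol II peaks, a fitted difference of -6.18 points (-8.21 to -4.15, adjusted p = 1.2e-08). In ChIP-bisulfite the means were 39.0% in several-Pol II peaks (SD 21.5, n = 726) and 42.5% in 1-Pol II peaks (SD 22.8, n = 7516), a difference of -3.50 (-5.19 to -1.80, adjusted p = 9.3e-05). The ChIP-bisulfite columns of this table were first moved by a fit to the site levels, so this value is not independent of the site result. With the lines in the deposited order the same fit gave -2.08 (-4.01 to -0.155, p = 0.034, n = 717 and n = 7370). With Pol II peaks under 500 bases apart joined to 1, this ChIP-bisulfite difference was -1.22 (p = 0.32, n = 429 and n = 7798).

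Both whole-peak differences had the opposite sign on short scaffolds. In RRBS the difference was -6.75 points on scaffolds of at least 1 Mb (-8.83 to -4.66, p = 2.2e-10, n = 694 and n = 7320). On shorter ones it was 7.15 (-1.96 to 16.3, p = 0.12), from means of 56.2% in several-Pol II peaks (n = 32) and 49.7% in 1-Pol II peaks (n = 196). The interaction term between group and class of scaffold passed (adjusted p = 0.011, Benjamini-Hochberg over 7, n = 726 and n = 7516). In ChIP-bisulfite the difference was -3.73 points on scaffolds of at least 1 Mb (-5.48 to -1.98, p = 3e-05, n = 694 and n = 7320) and 3.61 on shorter ones (-3.98 to 11.2, p = 0.35, n = 32 and n = 196), and the interaction term did not pass (adjusted p = 0.087, n = 726 and n = 7516).

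The intervals of the table of averages held 40.2 C positions per 1000 bases in several-Pol II peaks (SD 25.2, n = 792) and 35.4 in 1-Pol II peaks (SD 22.3, n = 8248), a fitted difference of 4.42 (2.55 to 6.29, adjusted p = 1.1e-05). On scaffolds of at least 1 Mb the difference was 4.72 (2.85 to 6.58, p = 7.2e-07, n = 752 and n = 8028). On shorter ones it was -11.9 (-23.7 to -0.0895, p = 0.048), with 45.4 C positions per 1000 bases in several-Pol II peaks (n = 40) and 53.9 in 1-Pol II peaks (n = 220), and the interaction term passed (adjusted p = 0.014, n = 792 and n = 8248). A start site that the table calls Active lay within 1000 bases of 15.4% of the several-Pol II peaks in it (13.0 to 18.1) and 11.4% of the 1-Pol II peaks (10.8 to 12.1). A start site that it calls Inactive lay within 1000 bases of 13.6% of the several-Pol II peaks (11.3 to 16.2) and 9.87% of the 1-Pol II peaks (9.23 to 10.5). In the H3K4me1 peaks of that table without a Pol II peak the share near an Active start site was 0.00581% (4 of 68865) and near an Inactive one 3.32%. The words Active and Inactive were not defined in the sources used here. Since Active went with Pol II peaks, which chose the groups, nothing is read from its share.

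Within the several-Pol II peaks, methylation was lowest under the Pol II peaks. Sites inside a Pol II peak averaged 27.0% in RRBS (SD 34.7, 159 peaks), sites between the first and the last Pol II peak but outside all of them 41.8% (SD 34.5, 222 peaks), and sites on the flanks 48.8% (SD 32.7, 419 peaks). The ChIP-bisulfite means were 21.8%, 36.7% and 44.4%, in the same order. In the several-Pol II peaks with sites both inside and between (n = 59), the RRBS level inside was lower by a mean of 12.3 points (difference -12.3, 95% interval -21.6 to -2.98, adjusted p = 0.012, scaffold-clustered mean of differences within peaks). It was lower inside in 39 of the 59, higher in 12 and equal in 8. In ChIP-bisulfite the difference was -14.6 points (-26.6 to -2.53, adjusted p = 0.02, n = 59), with 27 lower, 13 higher and 19 equal. With at least 2 sites in each part, fewer peaks were left (n = 25) and neither difference passed, at -6.12 in RRBS (p = 0.38) and -7.39 in ChIP-bisulfite (p = 0.3).

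Levels also differed between the strongest Pol II peak and the weaker ones, but mostly in different several-Pol II peaks. Sites inside the strongest averaged 20.1% in RRBS (86 peaks) and 15.7% in ChIP-bisulfite. Sites inside the weaker Pol II peaks averaged 33.2% (90 peaks) and 27.0%, with SDs of 31.5 to 36.2 and no test. Any site inside a Pol II peak was known in 159 several-Pol II peaks. Few of these had sites in both kinds, so no contrast within a peak is read. In the 1-Pol II peaks, sites inside the only Pol II peak averaged 27.6% in RRBS (869 peaks) and sites outside it 52.1% (5280 peaks). With distance from the nearest Pol II centre the RRBS mean of several-Pol II peaks was 29.6% within 250 bases, 32.5% at 250 to 500, 43.6% at 500 to 1000, 54.0% at 1000 to 1500 and 66.6% at 3000 to 5000 bases. The 1-Pol II peaks gave 34.5%, 33.1%, 39.4%, 55.8% and 65.1% over the same distances. The widest difference between the groups was at 1500 to 2000 bases, with 59.8% in several-Pol II peaks (SE 3.25) and 65.8% in 1-Pol II peaks (SE 0.959). The bins were not tested.

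**Figure D4:**
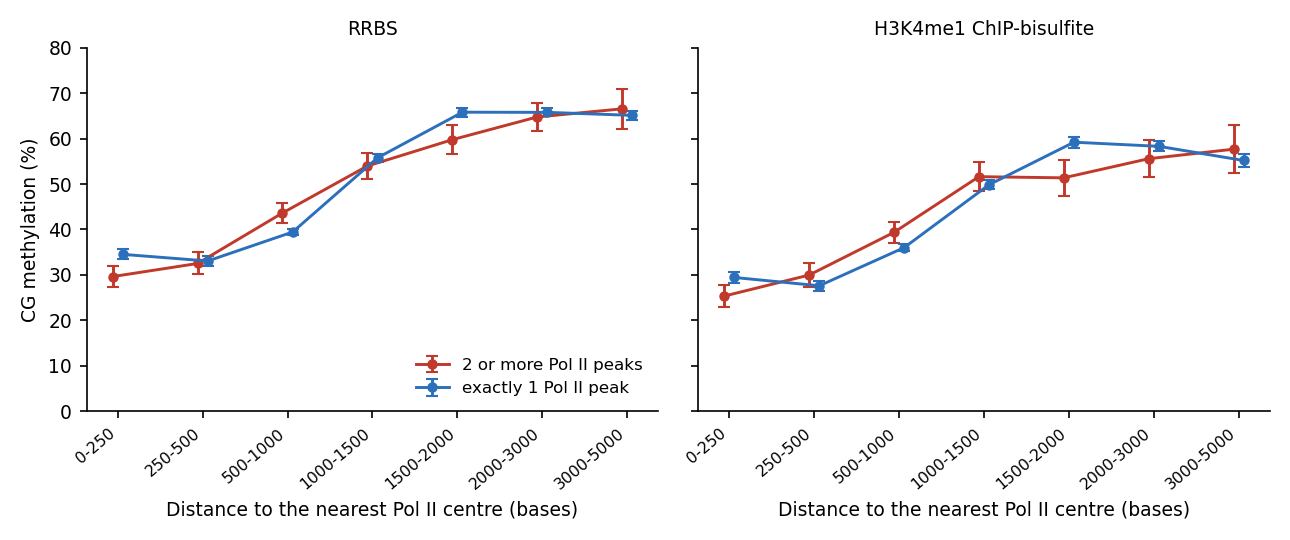
Mean CG methylation, in percent, of shared sites by distance to the nearest Pol II peak centre, in bases, with sites averaged within an H3K4me1 peak first and error bars of 1 SE over peaks. Left RRBS, right ChIP-bisulfite. In several-Pol II peaks RRBS was 29.6% within 250 bases and 66.6% at 3000 to 5000 bases, against 34.5% and 65.1% in 1-Pol II peaks.

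Named peaks show the range. Among the 212 several-Pol II peaks with at least 5 shared sites, 5 had an RRBS level of exactly 0 at every site, and their ChIP-bisulfite levels at those sites were 0 as well. Over all C positions of the table of averages, the same 5 peaks had 0.130% to 19.3% in RRBS and 0 to 46.4% in ChIP-bisulfite. One of these, on scaffold_51 from 9317052 to 9326419, held 4 Pol II peaks with scores of 6.33, 5.47, 3.03 and 6.10, in 2 pairs near its ends, and the start site of ENSCPOG00000000960. The other 4 held 2 Pol II peaks each and at least 1 start site. At the other end, the peak on scaffold_101 from 1946407 to 1950487 had 94.9% in RRBS (SD 3.07 over 10 sites) and 92.5% in ChIP-bisulfite (SD 23.7), although it too held a start site. Over the C positions that each assay covered, its level was 88.8% in RRBS and 23.5% in ChIP-bisulfite. These positions can differ between the assays, so only the shared sites compare the assays directly. Its Pol II peaks scored 5.75 and 3.16. A listed start site therefore did not go with low RRBS methylation in every several-Pol II peak.

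The peak with most shared sites had contrasting levels around its 2 start sites. It lay on scaffold_6 from 3010864 to 3019721, with 6 Pol II peaks that scored 2.50, 2.30, 1.91, 20.7, 15.1 and 2.65, and 47 shared sites. At the first start site, ENSCPOG00000015766, 5 sites outside the Pol II peaks were at 0 in RRBS and in ChIP-bisulfite. Under the Pol II peaks, 31 sites averaged 62.3% in RRBS (SD 25.9) and 50.5% in ChIP-bisulfite (SD 34.6), and the 11 between them 65.8% (SD 9.62) and 20.4% (SD 25.9). The deepest RRBS position in this peak had 1065 reads, so it is among the peaks with a position of at least 100 reads.

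Among those 212 peaks, ChIP-bisulfite lay farthest below RRBS in a peak on a short scaffold. The peak on scaffold_2369 from 21 to 6990 held 7 Pol II peaks, with scores from 2.08 to 3.19, 3 start sites and 22 shared sites. RRBS averaged 61.1% there (SD 15.5 over sites) and ChIP-bisulfite 7.73% (SD 6.36). Inside its Pol II peaks the level was 60.6% in RRBS and 9.50% in ChIP-bisulfite, and between them 61.6% in RRBS and 6.25% in ChIP-bisulfite, so the gap was much the same in both parts. Over all C positions it had 61.7% in RRBS and 11.2% in ChIP-bisulfite. Its deepest RRBS position had 733 reads. Among the same 212, ChIP-bisulfite lay farthest above RRBS in a peak on scaffold_70 from 3005173 to 3013349, with 54.0% in ChIP-bisulfite (SD 40.1 over 7 sites) and 16.6% in RRBS (SD 20.7). Over the C positions that each assay covered there, which need not be the same ones, the levels were 26.8% in ChIP-bisulfite and 15.2% in RRBS.

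**Figure D5:**
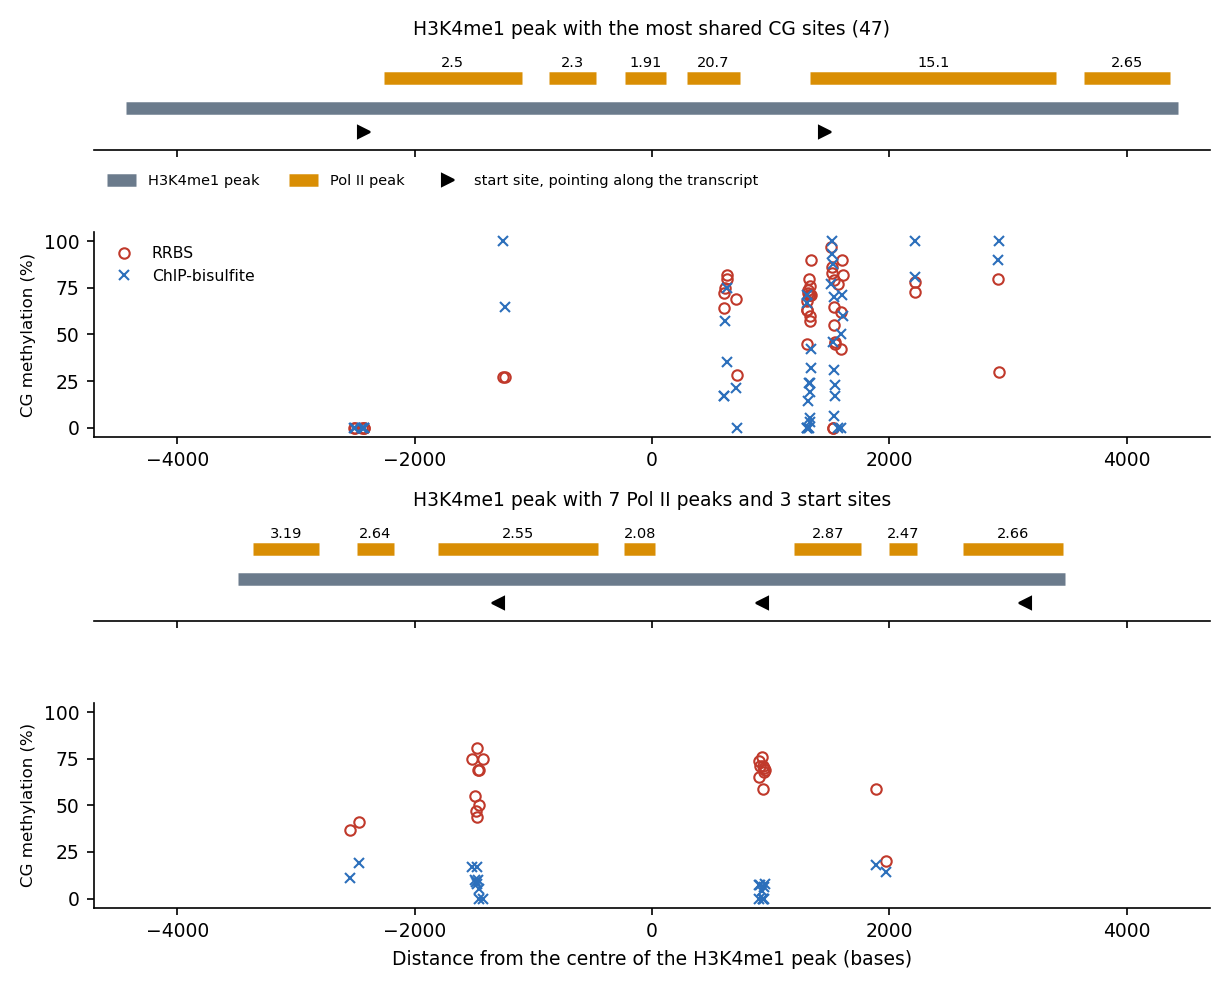
Maps of the H3K4me1 peak with the most shared CG sites (top) and of the peak with 7 Pol II peaks and 3 start sites (bottom), drawn to scale against the distance from the peak's centre in bases. Orange bars are Pol II peaks with their scores, arrowheads are start sites, circles are RRBS levels and crosses ChIP-bisulfite levels of single CG sites, in percent. In the top peak 5 sites at the left start site are at 0 in both assays, and in the bottom peak every ChIP-bisulfite level is below the RRBS level of the same site.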

How the data were processed

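Tools are known only by name from the submitters' processing notes, with no role or order: HOMER 4.6, MACS2, Bowtie2 2.2.3, Bismark 0.12.5, BSMAP 2.74, methylKit and SAMtools 1.1. The build and whether positions count from 0 or 1 are not given in the sources used here, and coordinates are printed as deposited. All values pool the 3 animals. Peak lists carry a score per peak, deposited by the authors on scales that were not stated. Per the file headers, levels of CG sites are in percent, and ChIP-bisulfite levels come without the reads of single sites. RRBS read counts per C position were deposited for positions with at least 10 reads. The deposited table of averages gives a level in percent per interval, ChIP-bisulfite read counts, and RRBS reads that were treated as estimated counts since 975 lines were not whole.

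That table lists most intervals more than once, and the entries' ChIP-bisulfite columns were identical in 18.5% of 98182 intervals. A displacement by whole lines, fitted to the site levels, moved 125619 of 198160 lines (63.4%), after which 98120 intervals were identical. Its intervals lie within listed peaks, and the level of a peak is their mean weighted by C positions, with at least 3 positions in each assay.

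Overlap meant at least 1 shared base. The peak was the unit of the fits, with sites averaged within it first. Fits were ordinary least squares with log2 width as covariate and scaffold-clustered errors (statsmodels 0.14.6, pandas 2.3.3, NumPy 2.4.6, Python 3.11.15), two-sided, with Benjamini-Hochberg adjustment over 9 differences and a threshold of 0.05. Interaction terms, added after the data were seen and adjusted over 7, tested whether a difference itself differed between scaffolds of at least 1 Mb and shorter ones. P-values without the word adjusted are unadjusted. Peaks share animals and libraries, so these p-values do not speak for other animals. Only the displacement of lines and the least squares fit of RRBS peak levels were tested on simulated data. The mean of differences within peaks, the fit of start site shares and the interaction terms were not. Shares carry 95% Clopper-Pearson intervals (SciPy 1.17.1), which cover counting error only. Named peaks were the 10 with most Pol II peaks, the 5 highest in summed score, the 5 with most start sites and, with at least 5 shared sites, the 5 lowest and highest in RRBS and in the gap between assays, and those chosen for the maps. The members, lists and alternatives were chosen with earlier results of these data known. Marker gene lists could not be applied, because identifiers were not paired with symbols. Sequences are not shown because no genome of the build was used.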

Additional observations from a re-analysis of the deposited data

Results flagged for a closer look

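The difference between several-Pol II peaks and 1-Pol II peaks in the share with a listed start site differed between long and short scaffolds. It was 1.52 percentage points on scaffolds of at least 1 Mb and -3.15 on shorter ones. The difference of these differences was 4.67 points (SE 1.22, 95% interval 2.27 to 7.07, adjusted p = 0.00095 by Benjamini-Hochberg over 7 such terms, n = 4802 and n = 23353 peaks, interaction term in the least squares fit with a width slope for each class of scaffold and scaffold-clustered errors, two-sided). The classes of scaffold were chosen after the data were seen, and the share on short scaffolds rests on 22 several-Pol II peaks and 101 1-Pol II peaks with a start site. A start site is listed only where a CG site was measured in both assays. On scaffolds of at least 1 Mb, 30.9% of several-Pol II and 29.3% of 1-Pol II peaks held such a site. On shorter ones the shares were 1.01% and 3.75%. The part of this listing in the term was not tested, so the term is not read as a difference in start sites themselves. The same term passed for 2 other measures, both from the table of averages. For C positions per 1000 bases the differences were 4.72 on scaffolds of at least 1 Mb and -11.9 on shorter ones, which differ by 16.6 (SE 6.04, 4.77 to 28.4, adjusted p = 0.014, n = 792 and n = 8248). For the whole-peak RRBS level they were -6.75 and 7.15 points, which differ by -13.9 (SE 4.72, -23.2 to -4.65, adjusted p = 0.011, n = 726 and n = 7516). On short scaffolds these rest on 40 and 32 several-Pol II peaks.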

How the results depend on the processing

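Of 84 alternative values over all results, 68 kept their direction and their side of the threshold or, for counts and distances, stayed within 1.5 times. Of these, 13 belong to the assay gap, which did not pass in the main fit either. Leaving out the mitochondrial genome removed no peak from the whole-peak levels or the C positions, so those values could not change. The count is therefore not a measure of how firm the results are. The RRBS site difference of -5.05 points did not pass with C positions per 1000 bases and start site distance as added covariates (-2.02). Nor did it pass under 5000 bases (-2.39) or with no start site within 1000 bases (-3.52). The ChIP-bisulfite site difference did not pass in those settings either (-1.72, -0.551 and -0.919), nor with close Pol II peaks joined (-2.25), where the whole-peak difference was -1.22. Inside minus between did not pass with 2 sites in each part (-6.12 in RRBS, -7.39 in ChIP-bisulfite) or with no start site near (-27.4 and -21.7, 14 peaks). With only Pol II peaks at or above the median score, 1657 peaks qualified and the difference of the assay gap turned to -2.45 (p = 0.23, n = 170 and n = 3504), not passing before or after. The start site difference turned to 1.52 on scaffolds of at least 1 Mb and to 8.52 in peaks with a shared site. These last settings, leaving out the mitochondrial genome and leaving out peaks with deep RRBS positions were chosen after seeing the data. The cause of these changes was not tested. No paired analysis was possible because the files pool all animals and carry no replicate numbers, and for the same reason no animal could be left out. Few CG sites per peak (a median of 3) and the unknown depth of ChIP-bisulfite limit the site results.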
